A study of Schizosaccharomyces pombe
Saccharomyces cerevisiae with 16 samples.

Results

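The nuclear genes of the respiratory chain encode proteins that pass electrons from NADH and succinate to oxygen at the mitochondrial inner membrane, together with the ATP synthase that uses the resulting proton gradient. They were taken as 40 listed systematic IDs of nuclear-encoded proteins, 2 for NADH dehydrogenases, 4 for complex II, 9 for complex III, 2 for cytochrome c, 9 for complex IV and 14 for complex V. The 14 include INH1, described as an inhibitor of ATP hydrolysis by the ATP synthase. The rule uses no measured value, but the members were chosen with earlier results of these data known. All 40 stood in both deposited tables, among the 6859 genes of the table of newly synthesized RNA and the 6805 of the total RNA table, and all 40 passed the filter on low counts in every fit. The files name 18 of the 40 in their gene name column and 5 more in their descriptions (RIP1, COX5A, COX5B, INH1 and NDI1), and the other 17 are given here by systematic ID with the described role.

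The data came from Saccharomyces cerevisiae (budding yeast) with a degron on Med14 or Med17, subunits of Mediator, the coactivator complex between gene-specific activators and RNA polymerase II. Mid-log cultures in YPD, a rich glucose medium, received 500 µM auxin (3-indole acetic acid) or its carrier DMSO for 30 min, then 5 mM 4-thiouracil for 6 min to label new RNA. There were 4 groups of cells, Med17-AID with auxin, Med17-AID with DMSO, Med14-AID with auxin and Med14-AID with DMSO. Each was sequenced as newly synthesized (4-thiouracil-labelled) and as total RNA with 2 biological replicates, which made 8 groups and 16 libraries. All groups are MATalpha haploids that carry the same deletions in ade2, his3, leu2, lys2, met15, trp1 and ura3 and express the F-box protein OsTIR1 from the GPD1 promoter, also in DMSO. The strain fields name OsTIR1 MED14-IAA7 and OsTIR1 MED17-IAA7. The longer genotype entry of the Med17-AID samples names a MED14-3V5-IAA7 tag, and their strain and source entries were followed instead. Auxin-treated cells without a degron were not analysed here. Each degron is carried by its own line, so an effect of the tag on Med17 or Med14 and any other difference between the lines cannot be told apart.

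Electrons enter the yeast chain through single-protein NADH dehydrogenases, since budding yeast has no proton-pumping complex I, and through complex II (succinate dehydrogenase). Complex III (ubiquinol-cytochrome c reductase) hands them to cytochrome c and complex IV (cytochrome c oxidase) hands them to oxygen, while complex V is the ATP synthase. Complexes III, IV and V also hold subunits made from the mitochondrial genome. On glucose, yeast gains most of its ATP by fermentation, and many nuclear respiratory genes are expressed below their level on non-fermentable carbon. The Hap2/3/4/5 complex and the heme-dependent factor Hap1 activate many of them, and Rox1 represses hypoxic genes when oxygen is present.

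Raw totals ranged from 3.83 to 13.96 M counts in the libraries of newly synthesized RNA and from 3.30 to 8.84 M in those of total RNA. Per library, the lowest raw count of a member was 0 (CYC7) for newly synthesized RNA and 6 (CYC7) for total RNA, and the lowest among the other 39 genes was 34 (INH1) and 51 (QCR9). Values below are raw counts multiplied by the authors' constant for the library (normalized counts), and log2 fold changes, given with their standard error (SE), use the same scale. On it the median of all tested genes moved by -2.71 in auxin-treated Med17-AID cells and by -1.86 in auxin-treated Med14-AID cells for newly synthesized RNA, and by -1.38 and -0.76 for total RNA. Where auxin is compared with DMSO, each member is therefore also set against that shift, because a scaling that centres the bulk of genes (TMM or median of ratios) removes it. Calls are at an adjusted p under 0.05 in edgeR's quasi-likelihood test over all tested genes. The SE is approximate, as the absolute log2 fold change divided by the square root of that test's F statistic. In all libraries the alpha mating genes MF(ALPHA)1 and STE3 had at least 132 raw counts and the a-factor genes MFA1 and MFA2 at most 11. The other listed genes of the a mating type were not as low in newly synthesized RNA. There STE2 had 62 to 140, STE6 45 to 332 and BAR1 14 to 65 raw counts. In total RNA they had 13 to 25, 13 to 106 and 5 to 19.

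Levels of different genes are compared per kilobase of transcript, in the authors' normalized counts divided by length. In newly synthesized RNA of DMSO cultures, 32 of the 40 genes in Med17-AID cells and 36 of 40 in Med14-AID cells lay above the 75th percentile of 6471 protein-coding genes. The beta subunit of the ATP synthase catalytic head (YJR121W) had the highest level, 7836 ± 522 per kb in Med17-AID cells and 11260 ± 214 in Med14-AID cells (SD, n = 2). The alpha subunit of the same head (YBL099W) followed in Med17-AID cells with 6109 ± 379, and in Med14-AID cells it had 9311 ± 116.7, where ATP15, the epsilon subunit, had 9624 ± 2205 and did not differ from it beyond the spread. At the other end was CYC7, the cytochrome c isoform of low-oxygen cells, with 236 ± 10.3 per kb in Med17-AID and 152 ± 14.8 in Med14-AID cells. Within complex V, INH1 had 654 ± 126.7 per kb in Med17-AID and 2548 ± 533 in Med14-AID cells, the lowest of its 14 genes. In complex II 3 of the 4 genes lay well below the median of the 40. SDH1, its flavoprotein, had 1015 ± 43.2 and SDH2, its iron-sulfur protein, 1326 ± 31.4 per kb in Med17-AID cells with DMSO, against a median of 2884 for the 40 genes. In Med14-AID cells with DMSO SDH1 had 1168 ± 483 and SDH2 2108 ± 132, against a median of 5190. The anchor gene SDH4 had 1520 ± 88.7 in Med17-AID and 2065 ± 470 in Med14-AID cells, and the other anchor gene SDH3 was closer to the median with 2647 ± 123 and 3946 ± 540.

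Auxin lowered newly synthesized RNA of all 40 respiratory chain genes in both strains on the authors' scale. The median log2 fold change of the 40 was -2.57 in Med17-AID cells, against -2.71 for all tested genes, and -1.99 in Med14-AID cells, against -1.86. As a share of DMSO, the median gene had 16.9% left in Med17-AID cells and 25.1% in Med14-AID cells. The auxin and DMSO libraries overlapped for 0 of the 40 genes, and no such count over all genes is given here. The calls were 40 lower and 0 higher in each strain, where 95.0% of 6072 tested genes were called lower and 1.70% higher in Med17-AID cells and 94.2% lower and 0.560% higher in Med14-AID cells. The respiratory chain genes therefore fell as often as nearly every gene, and 17 of 40 in Med17-AID and 26 of 40 in Med14-AID cells lay below the all-gene median. Under TMM, which moved the all-gene medians to -0.04 and 0.02, the medians of the 40 were 0.08 and -0.13. In Med17-AID cells 6 were then lower and 12 higher, where 30.3% of all genes were lower and 28.5% higher. In Med14-AID cells 8 were lower and 2 higher, where 24.3% of all genes were lower and 24.9% higher. With either scaling that centres the bulk of genes, 4 genes stayed lower in Med17-AID cells (CYC1, CYC7, SDH1 and COX5B) and 8 in Med14-AID cells (CYC1, NDE1, CYT1, ATP15, INH1, QCR6, SDH3 and YHR001W-A). DESeq2 on the authors' scale also called 40 lower and 0 higher in each strain, and at an unadjusted p under 0.05 edgeR had 0 higher.

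**Figure D1:**
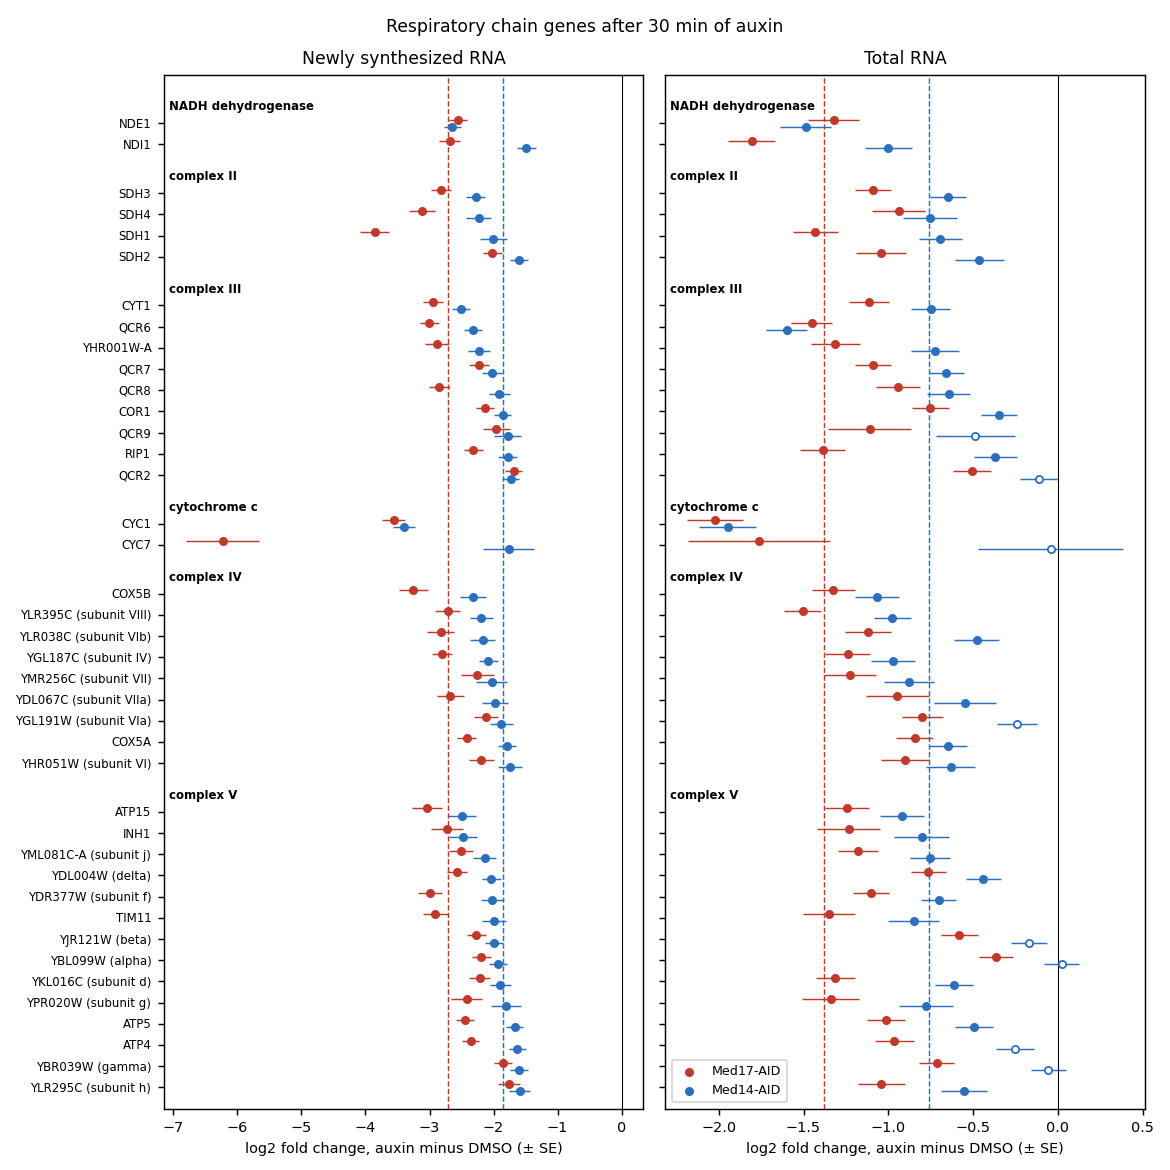
Log2 fold change of auxin minus DMSO (± SE, 2 libraries per group) for the 40 genes by complex, with newly synthesized RNA at left and total RNA at right on separate axes. Filled points were called at an adjusted p under 0.05 and dashed lines are the all-gene medians of each strain. All 40 genes were called lower in both strains in newly synthesized RNA on the authors' scale, CYC7 reached -6.23 in Med17-AID cells, and 8 open points mark genes not called in total RNA of Med14-AID cells. With TMM scaling the medians of the 40 in newly synthesized RNA were 0.08 in Med17-AID and -0.13 in Med14-AID cells.

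The NADH dehydrogenases behaved differently from each other. NDE1, which oxidizes cytosolic NADH at the outer face of the inner membrane (chromosome XIII, 554793 to 556475, sacCer3), had 675 and 685 normalized counts of newly synthesized RNA in auxin-treated Med17-AID cells, against 4041 and 3948 with DMSO. In Med14-AID cells NDE1 had 1422 and 1399 with auxin, against 8886 and 8763 with DMSO. Its log2 fold changes were -2.55 ± 0.14 (SE, adjusted p = 4.82e-12) and -2.65 ± 0.14 (adjusted p = 1.97e-11), and the change did not differ detectably between the strains (Med17 minus Med14 0.09 ± 0.18, adjusted p = 0.678). NDI1, the enzyme for NADH of the matrix, had 365 and 291 with auxin in Med17-AID cells, against 1970 and 2245 with DMSO, and 893 and 858 with auxin in Med14-AID cells, against 2625 and 2293 with DMSO. Its fall of -1.49 ± 0.15 in Med14-AID cells was the smallest of the 40, and in Med17-AID cells it was -2.69 ± 0.16. The difference of -1.20 ± 0.21 was called (adjusted p = 0.000168), and with TMM it was -0.43 and not called.

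Complex II had the largest strain difference outside cytochrome c. SDH1 had 143 and 126 normalized counts with auxin in Med17-AID cells, against 1894 and 2011 with DMSO, and its log2 fold change was -3.86 ± 0.23 (adjusted p = 1.71e-11). In Med14-AID cells it had 606 and 510 with auxin, against 2901 and 1589 with DMSO, a change of -2.0 ± 0.21. The DMSO replicates of Med14-AID stood far apart for this gene, yet the strain difference of -1.86 ± 0.30 (adjusted p = 8.38e-05) was called under all alternatives, at -2.35 without the higher and -1.48 without the lower of them. SDH4, a membrane anchor, had 102 and 89.6 with auxin in Med17-AID cells, against 796 and 864 with DMSO, and 220 and 259 with auxin in Med14-AID cells, against 1309 and 946 with DMSO. SDH3, the other anchor protein, changed by -2.82 ± 0.16 and -2.28 ± 0.15. SDH2 was the member of complex II with the least change in both strains (-2.02 ± 0.15 and -1.60 ± 0.14), and its strain difference of -0.42 ± 0.20 was not called.

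Complex III genes had log2 fold changes from -3.00 to -1.69 in Med17-AID cells and from -2.51 to -1.73 in Med14-AID cells. CYT1, cytochrome c1, had 219 and 249 normalized counts with auxin in Med17-AID cells, against 1717 and 1889 with DMSO, and 520 and 550 with auxin in Med14-AID cells, against 2883 and 3196 with DMSO. It changed by -2.94 ± 0.15 and -2.51 ± 0.14 (adjusted p = 5.06e-11 in Med14-AID cells). QCR2, a core subunit, had 1060 and 963 with auxin in Med17-AID cells, against 3125 and 3392 with DMSO, which was the smallest fall of the 40 in that strain (-1.69 ± 0.14, adjusted p = 7.64e-10). In Med14-AID cells QCR2 had 1681 and 1696 with auxin, against 5700 and 5534 with DMSO (-1.73 ± 0.14). QCR9, a small subunit, changed by -1.96 ± 0.22 in Med17-AID and -1.78 ± 0.20 in Med14-AID cells, and the Rieske iron-sulfur protein RIP1 by -2.32 ± 0.15 and -1.78 ± 0.14. QCR6 (-3.00 ± 0.15 and -2.32 ± 0.14) had the lowest value of the complex in Med17-AID cells and CYT1 in Med14-AID cells. QCR8 was at -2.85 ± 0.17 and -1.91 ± 0.16.

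A cytochrome c gene had the lowest value of the 40 in each strain, CYC7 in Med17-AID and CYC1 in Med14-AID cells. CYC1, the main form in aerobic cells (chromosome X, 526335 to 526664), had 70.2 and 72.5 normalized counts with auxin in Med17-AID cells, against 823 and 863 with DMSO, and 127 and 139 with auxin in Med14-AID cells, against 1381 and 1421 with DMSO. It changed by -3.56 ± 0.18 (adjusted p = 2.85e-12) and -3.40 ± 0.17 (adjusted p = 1.82e-11), so 8.46% and 9.50% of the DMSO level was left, and without the shift of all genes it was still lower (TMM -0.91 and -1.53). CYC7 (chromosome V, 79636 to 79977) had 0 and 1.77 normalized counts with auxin in Med17-AID cells, from 0 and 3 raw counts, against 78.3 and 83.3 with DMSO. With these counts 1.2% of the DMSO level was left (exact 95% counting interval 0.243% to 3.60%, which covers counting error only). In Med14-AID cells CYC7 had 18.0 and 12.5 with auxin, against 48.5 and 55.6 with DMSO, and 29.2% was left (19.9% to 42.6%). Those intervals did not overlap, and the fitted strain difference of -4.47 ± 0.77 (adjusted p = 0.000136) was called under every alternative, between -7.62 and -3.66 when single libraries were left out. The fold change itself rests on few counts in the auxin libraries of Med17-AID.

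Complex IV genes lay between -3.25 and -2.12 in Med17-AID cells and between -2.33 and -1.74 in Med14-AID cells. Subunit V has paralogs, COX5A for aerobic and COX5B for low-oxygen cells, and COX5B changed most of the 9 genes in both strains. COX5B had 36.5 and 53.7 normalized counts with auxin in Med17-AID cells, against 404 and 463 with DMSO, and 129 and 144 with auxin in Med14-AID cells, against 637 and 733 with DMSO. COX5A had 337 and 315 with auxin in Med17-AID cells, against 1763 and 1723 with DMSO, and 796 and 828 with auxin in Med14-AID cells, against 3079 and 2559 with DMSO. Log2 fold changes were -3.25 ± 0.22 and -2.33 ± 0.20 for COX5B and -2.42 ± 0.15 and -1.80 ± 0.14 for COX5A. Both were lowered more in Med17-AID cells, by -0.93 ± 0.29 for COX5B (adjusted p = 0.0114, and -0.69 with adjusted p = 0.0629 without Med17-AID auxin replicate 1) and -0.62 ± 0.20 for COX5A (adjusted p = 0.0121). Under TMM neither difference was called, and that of COX5A was 0.16. The remaining 7 genes, for subunits IV, VI, VIa, VIb, VII, VIIa and VIII, changed by -2.82 to -2.12 in Med17-AID cells and by -2.19 to -1.74 in Med14-AID cells.

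**Figure D2:**
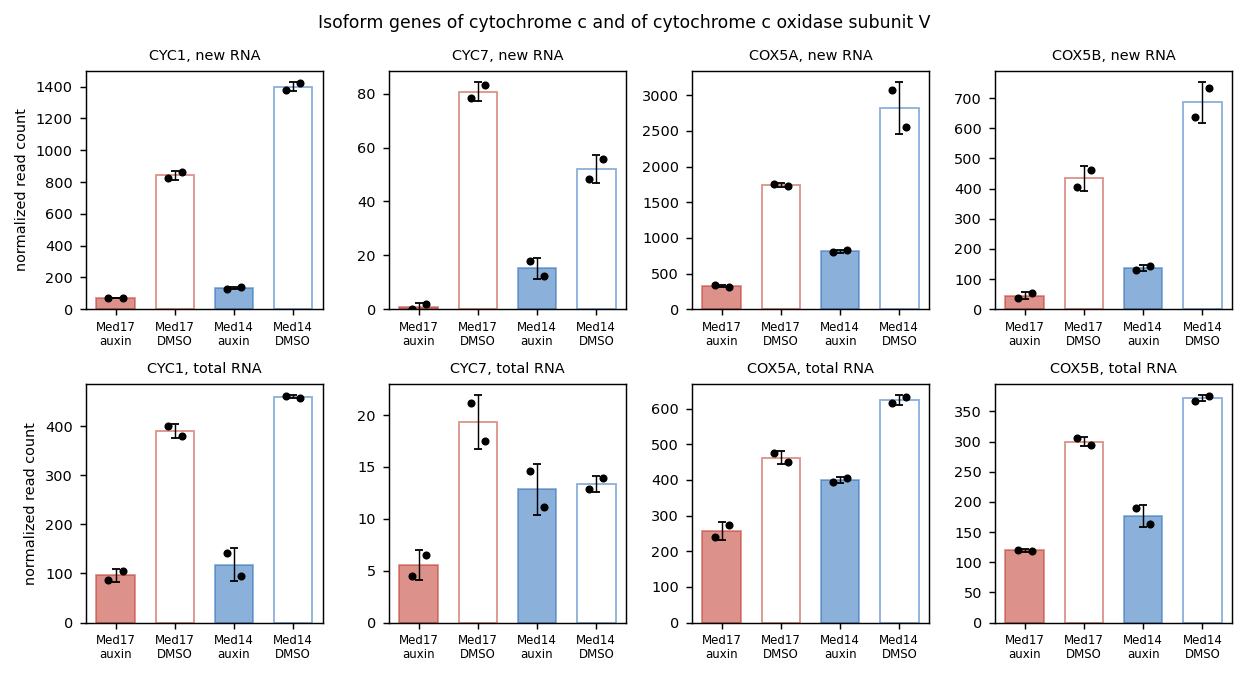
Normalized read counts of CYC1, CYC7, COX5A and COX5B in each library (points), with the mean (bar) and SD (line) of 2 libraries, in newly synthesized RNA (top) and total RNA (bottom). Filled bars are auxin and open bars DMSO, each panel with its own axis from 0. CYC7 had 0 and 1.77 in auxin-treated Med17-AID cells in newly synthesized RNA, while in total RNA of Med14-AID cells its auxin and DMSO values overlap.

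Per kilobase, COX5A RNA exceeded COX5B RNA in every library. In newly synthesized RNA the ratio of COX5A to COX5B was 9.10 and 5.79 with auxin in Med17-AID cells, against 4.29 and 3.67 with DMSO, and 6.07 and 5.64 with auxin in Med14-AID cells, against 4.76 and 3.44 with DMSO. In total RNA it was 1.95 and 2.28 with auxin in Med17-AID cells, against 1.53 and 1.503 with DMSO, and 2.04 and 2.43 with auxin in Med14-AID cells, against 1.65 and 1.66 with DMSO. Auxin libraries had the higher ratio in all 4 settings without overlap, and the scaling between libraries cancels in such ratios. A comparison of 2 against 2 libraries cannot give an exact p below 0.333, so the ratios are a description. The ratio of CYC1 to CYC7 went the other way in Med14-AID cells, with 7.35 and 11.5 with auxin in newly synthesized RNA, against 29.5 and 26.5 with DMSO, and 10.0 and 8.81 with auxin in total RNA, against 37.3 and 34.0 with DMSO. In newly synthesized RNA of Med17-AID cells it was higher with auxin, at 42.5 in replicate 2, from 3 raw counts of CYC7, and undefined in replicate 1, where CYC7 had 0, against 10.9 and 10.7 with DMSO. In Med17-AID cells the total RNA ratio was 20.04 and 16.6 with auxin, against 19.6 and 22.5 with DMSO, and the groups overlapped.

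Complex V genes lay between -3.04 and -1.76 in Med17-AID cells and between -2.49 and -1.59 in Med14-AID cells. ATP15 had 111 and 117.3 normalized counts with auxin in Med17-AID cells, against 958 and 924 with DMSO, and 239 and 410 with auxin in Med14-AID cells, against 1524 and 2114 with DMSO. It changed by -3.04 ± 0.23 and by -2.49 ± 0.22 (adjusted p = 5.07e-09 in Med14-AID cells). The gamma subunit of the central stalk (YBR039W) and subunit h of the membrane sector (YLR295C) were at the other end in both strains. The gamma gene had 1028 and 980 with auxin in Med17-AID cells, against 3746 and 3478 with DMSO, and 1825 and 1977 with auxin in Med14-AID cells, against 5297 and 6252 with DMSO (-1.85 ± 0.14 and -1.60 ± 0.14). The subunit h gene changed by -1.76 ± 0.17 and -1.59 ± 0.16. It shares 32 bases with the dubious open reading frame YLR294C, by their IDs on the same strand, so reads there could not be told apart. The alpha subunit gene YBL099W shares 251 bases with the dubious frame YBL100C, by their IDs on opposite strands. With the counting's strand setting unknown, it is open whether reads there were told apart. In Med17-AID cells the alpha and beta genes of the catalytic head were close to each other, at -2.19 ± 0.15 and -2.27 ± 0.15. Epsilon (ATP15), described like them as part of the F1 sector, was at -3.04 ± 0.23. No test compared these genes with each other.

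Auxin changed newly synthesized RNA more in Med17-AID than in Med14-AID cells for 19 of the 40 genes and less for 0, with a median difference of -0.54 (range -4.47 to 0.09). Over all 6072 genes the median difference was -0.82, with 59.6% called lower and 3.28% higher (16.8% and 18.0% under TMM), so 32 of the 40 genes lay above it. At an unadjusted p under 0.05, 20 were lower and 0 higher, and DESeq2 called 18 and 0. The lowest values were those of CYC7, SDH1, NDI1 and the subunit f gene of complex V YDR377W (-0.98 ± 0.25, adjusted p = 0.00276), and the highest those of NDE1, QCR2 (0.05 ± 0.19, adjusted p = 0.840), CYC1 (-0.16 ± 0.24, adjusted p = 0.553) and YLR295C (-0.17 ± 0.23, adjusted p = 0.530). By complex, 1 of 2 NADH dehydrogenases, 3 of 4 complex II, 4 of 9 complex III, 1 of 2 cytochrome c, 5 of 9 complex IV and 5 of 14 complex V genes were called. TMM moved the all-gene median to -0.04 and that of the 40 to 0.25, with 2 lower and 9 higher, so for the group the direction depends on the scaling, while CYC7 and SDH1 were called lower in every setting.

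Total RNA changed less than newly synthesized RNA. In Med17-AID cells all 40 genes were called lower, with a median of -1.11 and 46.1% left, where 87.4% of 5625 tested genes were called lower, 2.42% were called higher and the all-gene median was -1.38. In Med14-AID cells 32 were called lower and 0 higher, with a median of -0.65 and 63.7% left, where 75.1% of all genes were called lower, 1.62% higher and the median was -0.76. At an unadjusted p under 0.05, 33 were lower and 0 higher in Med14-AID cells, and DESeq2 called 31 and 0. TMM turned the medians of the 40 to 0.10 in Med17-AID and 0.04 in Med14-AID cells. In Med17-AID cells 3 were then lower and 8 higher, where 34.0% of all genes were lower and 26.1% higher. In Med14-AID cells 4 were lower and 7 higher, where 19.1% of all genes were lower and 18.7% higher. In bulk RNA, fewer cells and less RNA per cell cannot be told apart.

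CYC1 had the lowest total RNA values in both strains. It had 87.2 and 104.9 normalized counts with auxin in Med17-AID cells, against 400.5 and 381 with DMSO, and 141 and 94.5 with auxin in Med14-AID cells, against 462 and 458 with DMSO (-2.02 ± 0.16, adjusted p = 3.89e-07, and -1.95 ± 0.17, adjusted p = 9.41e-06). QCR6, subunit 6 of complex III, had 165 and 155 with auxin in Med17-AID cells, against 430 and 445 with DMSO, and 219 and 178 with auxin in Med14-AID cells, against 625 and 584 with DMSO. Its values of -1.45 ± 0.12 and -1.60 ± 0.12 made it the second lowest in Med14-AID cells. NDE1 came next there at -1.49 ± 0.15 (adjusted p = 1.65e-05) and then COX5B at -1.07 ± 0.13 (adjusted p = 3.54e-05), each also lower under TMM. In Med17-AID cells NDI1 (-1.80 ± 0.14, adjusted p = 3.09e-07), CYC7 (-1.76 ± 0.42, adjusted p = 0.00158) and the complex IV subunit VIII gene YLR395C (-1.51 ± 0.11, adjusted p = 2.72e-07) followed CYC1.

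On the authors' scale the alpha, beta and gamma genes of the ATP synthase kept the largest shares of their DMSO total RNA among the 14 of complex V, while ATP15 (epsilon) had 41.9% left in Med17-AID and 52.8% in Med14-AID cells. The alpha subunit gene YBL099W had 3442 and 3573 normalized counts with auxin in Med17-AID cells, against 4453 and 4580 with DMSO, and 4991 and 5335 with auxin in Med14-AID cells, against 5056 and 5103 with DMSO. The groups overlapped in Med14-AID cells (0.02 ± 0.10, adjusted p = 0.839) and were apart in Med17-AID cells (-0.36 ± 0.10, adjusted p = 0.00485). The gamma gene YBR039W (-0.06 ± 0.10, adjusted p = 0.619), QCR2 (-0.11 ± 0.11, adjusted p = 0.371) and the beta gene YJR121W (-0.17 ± 0.11) were likewise not called in Med14-AID cells, whereas in Med17-AID cells they were at -0.72 ± 0.10, -0.51 ± 0.11 and -0.58 ± 0.11 and called. The other genes not called in Med14-AID cells were ATP4, QCR9, the complex IV subunit VIa gene YGL191W and CYC7. CYC7 had 14.6 and 11.1 with auxin in Med14-AID cells, against 12.8 and 13.9 with DMSO (-0.04 ± 0.43, adjusted p = 0.937), and 4.51 and 6.56 with auxin in Med17-AID cells, against 21.1 and 17.5 with DMSO. The exact 95% counting interval of the remaining level ran from 51.9% to 181% in Med14-AID cells, so at this depth a moderate change there was not detectable.

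The strain difference of the total RNA change was called lower for 19 of the 40 genes and higher for 0. Of all genes 41.3% were called lower and 1.23% higher (5.99% and 8.40% under TMM). The median difference was -0.43 for the 40 against -0.54 for all genes. The lowest were CYC7 (-1.72 ± 0.61, adjusted p = 0.0392), RIP1 (-1.02 ± 0.18, adjusted p = 0.00236), NDI1 (-0.80 ± 0.20, adjusted p = 0.00816) and SDH1 (-0.74 ± 0.18, adjusted p = 0.00889). QCR6 (0.15 ± 0.17, adjusted p = 0.499) and NDE1 (0.16 ± 0.21, adjusted p = 0.544) were at the high end with SDH4 (-0.18 ± 0.22) and CYC1 (-0.08 ± 0.24). Of these 19 genes and the 19 of newly synthesized RNA, 10 were the same. Whether this is more than a random overlap of 2 such sets from the 40 was not tested. The 10 shared genes were CYC7, SDH1, SDH3, NDI1, RIP1, YHR001W-A, YLR038C, ATP4, ATP5 and YDR377W. The count was sensitive to single libraries, with 7 without Med14-AID DMSO replicate 1, 8 without Med14-AID auxin replicate 1, 12 without Med14-AID auxin replicate 2, 9 without Med17-AID DMSO replicate 1 and 8 without either Med17-AID auxin replicate. CYC7 lost its call when any of the 8 libraries was left out, and also without the filter, with the replicate block and under both other scalings. RIP1, NDI1, SDH1, ATP4, the gamma gene YBR039W and the subunit d gene YKL016C were called in every setting on the authors' scale, and under TMM 0 were lower and 2 higher.

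Newly synthesized RNA fell further than total RNA for all 40 genes in both strains in a joint fit of the 16 libraries. That fit did not pair newly synthesized and total RNA libraries of the same group of cells and number. With a block for each such pair, 40 were again called lower in each strain, where 85.5% of all genes were in Med17-AID and 81.9% in Med14-AID cells. The medians of the 40 were then -1.53 and -1.37. The values below are from the fit without the block. The median of the difference (change of newly synthesized RNA minus change of total RNA) was -1.52 in Med17-AID cells, against -1.34 for all 6057 genes tested, and -1.37 in Med14-AID cells, against -1.05. All genes tested were called lower in 84.1% and higher in 0.281% in Med17-AID cells, and lower in 79.6% and higher in 0.0165% in Med14-AID cells. In Med14-AID cells 36 of the 40 genes lay below the all-gene median. Under TMM, with all-gene medians of 0.10 and 0.13, the medians of the 40 were -0.09 and -0.19. In Med17-AID cells 2 were then lower and 2 higher, where 14.5% of all genes were lower and 15.8% higher. In Med14-AID cells 3 were lower and 1 higher, where 10.8% of all genes were lower and 3.62% higher.

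In Med14-AID cells the gap was widest for the alpha and beta genes of the ATP synthase head, YBL099W (-1.95 ± 0.16, adjusted p = 1.29e-08) and YJR121W (-1.82 ± 0.16, adjusted p = 3.10e-08), and for CYT1 (-1.76 ± 0.18), and these 3 were also called lower with both centring scalings. It was narrowest for NDI1 (-0.49 ± 0.20, adjusted p = 0.0353) and QCR6 (-0.72 ± 0.17, adjusted p = 0.00143). NDI1 had 35.6% of its DMSO level left in newly synthesized and 49.9% in total RNA, and QCR6 20.02% and 32.8%. The NDI1 call was lost without Med14-AID replicate 1 of newly synthesized DMSO RNA (-0.39), either replicate of newly synthesized auxin RNA (-0.52 and -0.46), replicate 1 of total DMSO RNA (-0.41) or replicate 1 of total auxin RNA (-0.42). In Med17-AID cells the widest gaps were those of CYC7 (-4.46 ± 0.82, adjusted p = 9.82e-05), SDH1 (-2.43 ± 0.30, adjusted p = 1.19e-06), SDH4 (-2.18 ± 0.26, adjusted p = 7.34e-07) and COX5B (-1.93 ± 0.25, adjusted p = 2.03e-06). The narrowest were YLR295C (-0.72 ± 0.21, adjusted p = 0.00410), QCR9 (-0.84 ± 0.35, adjusted p = 0.0322), NDI1 (-0.88 ± 0.21) and YKL016C (-0.90 ± 0.21). QCR9 lost its call without any of 4 libraries, Med17-AID newly synthesized DMSO replicate 1 (-0.78), newly synthesized auxin replicate 2 (-0.70), total DMSO replicate 2 (-0.68) and total auxin replicate 2 (-0.41). Across the 40 genes the changes of new and total RNA had a Spearman rho of 0.59 in Med17-AID and 0.64 in Med14-AID cells, as a description over genes that share the same libraries.

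**Figure D3:**
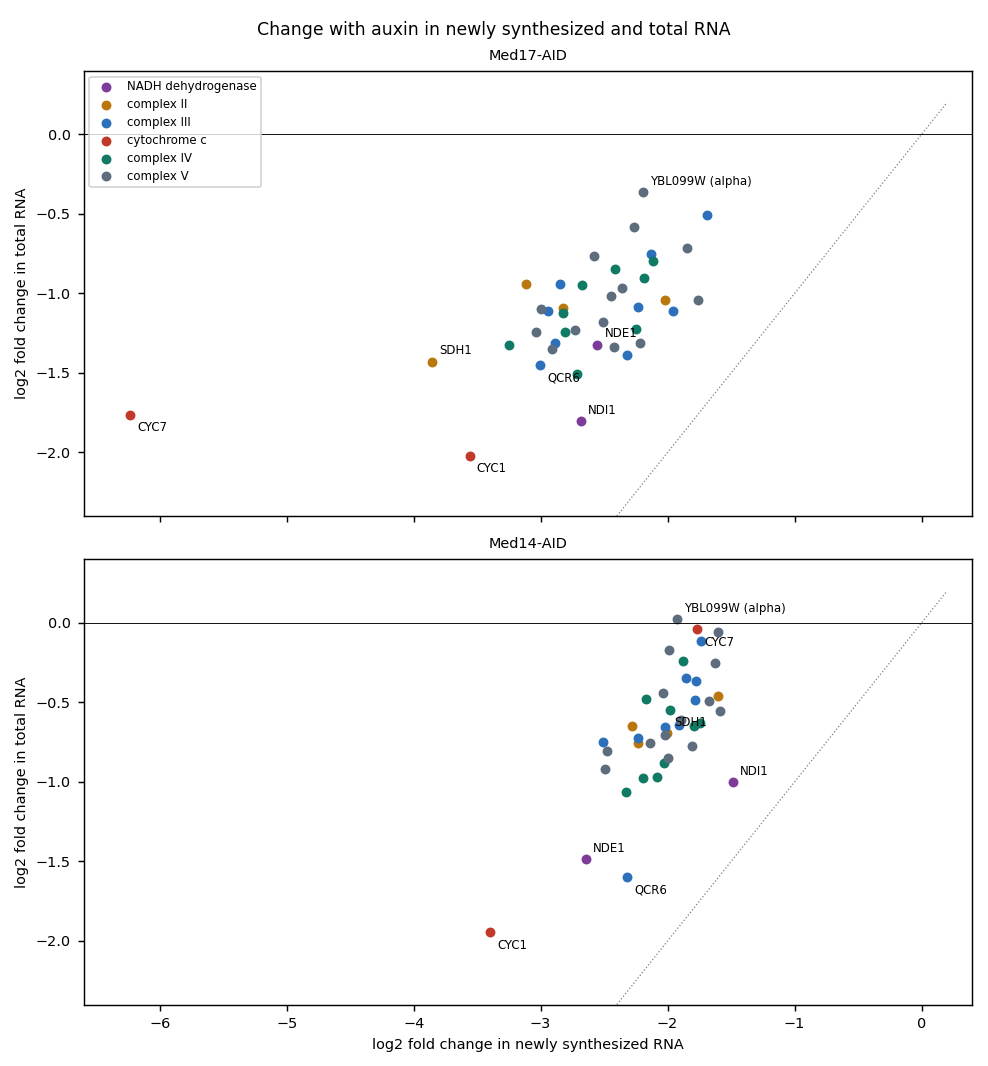
Log2 fold change with auxin in newly synthesized RNA (x) and total RNA (y) for each of the 40 genes, coloured by complex, in Med17-AID (top) and Med14-AID cells (bottom). The dotted line marks equal change and all points lie above it. CYC1 is low on both axes in both strains, CYC7 stands alone at -6.23 in Med17-AID cells and the alpha subunit gene YBL099W is near 0 in total RNA of Med14-AID cells. With TMM scaling the medians of the 40 are near 0 on both axes, between -0.13 and 0.10.

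In DMSO, without auxin, the strains differed in the respiratory chain genes. Newly synthesized RNA of 36 of the 40 genes was lower in Med17-AID than in Med14-AID cells and that of 0 was higher, with a median log2 difference of -0.74 (range -1.96 to 0.63). Among all 6072 genes 24.1% were called lower and 6.04% higher, with a median of -0.21, and 38 of the 40 genes lay below that median. At an unadjusted p under 0.05, 37 were lower and 0 higher, and DESeq2 called 35 and 0. The direction did not depend on the scaling, with a median of -0.56 under TMM and -0.55 with median-of-ratios scaling and 29 lower and 0 higher under each. Of all genes 17.8% were lower and 13.6% higher under TMM, and 17.4% and 14.2% with median-of-ratios scaling. Both Med17-AID libraries lay below both Med14-AID libraries for 38 genes, above them for CYC7, and overlapped for SDH1. No such count over all genes is given here, so it describes the 40 alone. When single libraries were left out the count was 28 to 32, and 24 genes were called in every setting. The 40 genes took 0.491% and 0.535% of all counts in Med17-AID cells with DMSO, against 0.721% and 0.724% in Med14-AID cells with DMSO, and these shares do not use the authors' constants.

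INH1, the inhibitor that keeps the ATP synthase from hydrolysing ATP, differed most (chromosome IV, 135179 to 135436). It had 146 and 192 normalized counts in Med17-AID cells with DMSO, against 560 and 755 in Med14-AID cells with DMSO, a difference of -1.96 ± 0.22 (adjusted p = 6.18e-06) that lay between -2.18 and -1.72 when single libraries were left out. The complex IV subunit VII gene YMR256C came second (-1.53 ± 0.24, adjusted p = 0.000182), with 461 and 495 in Med17-AID cells, against 1156 and 1608 in Med14-AID cells. QCR9 had 519 and 476 in Med17-AID cells, against 950 and 1315 in Med14-AID cells (-1.19 ± 0.21, adjusted p = 0.000382). NDE1 was also lower in Med17-AID cells (-1.14 ± 0.13, adjusted p = 7.64e-06), and the DMSO values given above for it are far apart compared with the spread between replicates. All 9 genes of complex III, all 9 of complex IV and all 14 of complex V were called lower, against 2 of 4 in complex II and 1 of 2 in each of the other pairs. CYC1 was lower (-0.73 ± 0.16, adjusted p = 0.00199), as were COX5A (-0.69 ± 0.14, adjusted p = 0.00124) and COX5B (-0.66 ± 0.19, adjusted p = 0.0161).

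The 4 genes not called were CYC7 (0.63 ± 0.37, adjusted p = 0.214), SDH1 (-0.20 ± 0.20, adjusted p = 0.503), NDI1 (-0.22 ± 0.15, adjusted p = 0.279) and SDH4 (-0.44 ± 0.18). SDH1 depended on the Med14-AID DMSO replicates, with a difference of 0.30 without replicate 1 and of -0.57 and called without replicate 2. QCR6 was the called gene closest to 0 (-0.37 ± 0.14, adjusted p = 0.0463), and it lost the call without Med14-AID DMSO replicate 1 (-0.28) or either Med17-AID DMSO replicate (-0.35 and -0.39). COX5B was not called without Med14-AID DMSO replicate 2 (-0.55) or either Med17-AID replicate (-0.57 and -0.76). CYC7, the low-oxygen isoform, was thus the only gene of the 40 with both Med17-AID values above the Med14-AID values, at 78.3 and 83.3 against 48.5 and 55.6.

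**Figure D4:**
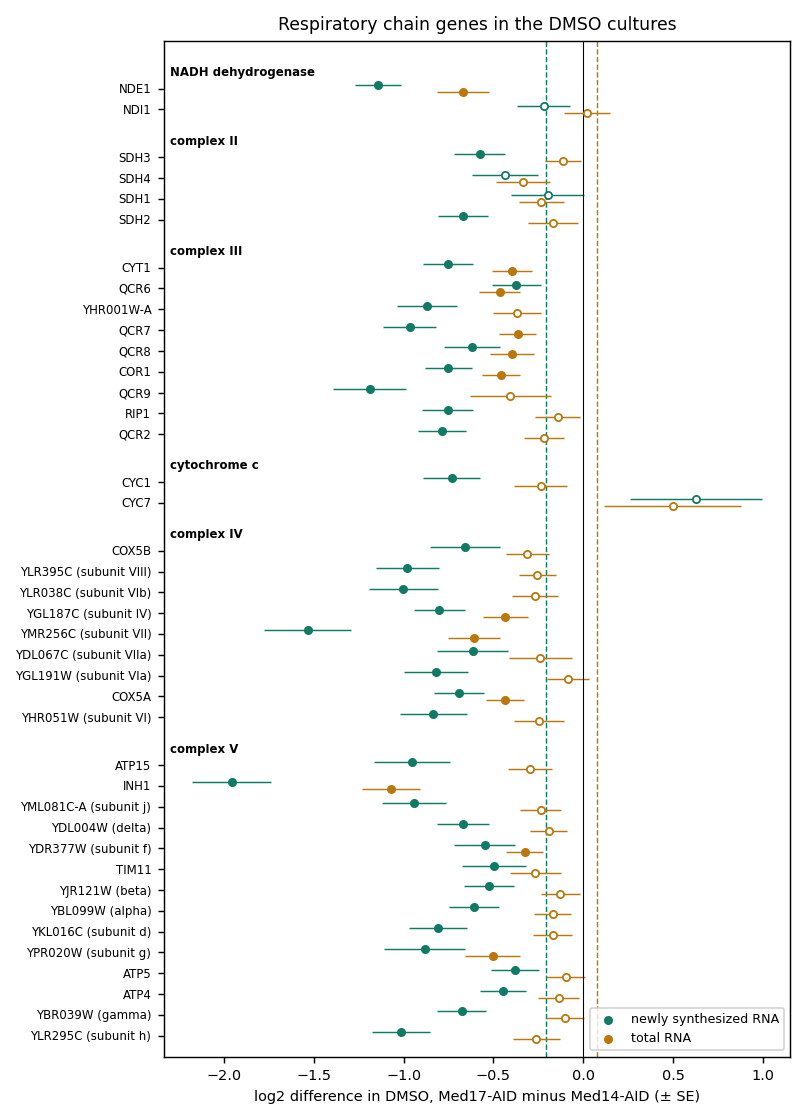
Log2 difference between the strains in DMSO, Med17-AID minus Med14-AID (± SE, 2 libraries per group), for the 40 genes by complex, in newly synthesized and total RNA. Filled points were called at an adjusted p under 0.05 and dashed lines are the all-gene medians (-0.21 and 0.08). The filled points all lie below 0, 36 for newly synthesized and 12 for total RNA, with INH1 lowest at -1.96 and -1.07.

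In total RNA the same difference was smaller. It was called lower for 12 of the 40 genes and higher for 0, where 5.83% of all genes were called lower and 9.69% higher (9.54% and 8.90% under TMM). The median of the 40 was -0.26 against 0.08 for all genes. At an unadjusted p under 0.05, 17 were lower and 0 higher, and DESeq2 called 6 and 0. All 12 were also called in newly synthesized RNA, where 36 of the 40 were. INH1 had 123 and 127 normalized counts in Med17-AID cells, against 258 and 268 in Med14-AID cells (-1.07 ± 0.16, adjusted p = 0.00110), and it kept its call under all alternatives. NDE1 had 987 and 974 in Med17-AID cells, against 1569 and 1553 in Med14-AID cells (-0.67 ± 0.15, adjusted p = 0.00873, and 0.0533 without Med17-AID DMSO replicate 2). YMR256C (-0.61 ± 0.14, adjusted p = 0.0132), the ATP synthase subunit g gene YPR020W (-0.50 ± 0.15, adjusted p = 0.0446) and COX5A (-0.44 ± 0.11, adjusted p = 0.0166) were lower as well, and each lost its call without at least 2 of the 4 libraries, among them Med14-AID replicate 2 (-0.47, -0.38 and -0.42) and Med17-AID replicate 2 (-0.50, -0.36 and -0.40). Both Med17-AID libraries lay below both Med14-AID libraries for 36 of the 40 genes and above for CYC7 (0.50 ± 0.38, adjusted p = 0.434). That count too is given without one over all genes. NDI1 (0.02 ± 0.13), YGL191W (-0.08 ± 0.12) and ATP5 (-0.10 ± 0.11) were closest to 0. The count of called genes was 4 and 3 without Med14-AID DMSO replicates 1 and 2, and 7 and 1 without Med17-AID DMSO replicates 1 and 2, while under TMM it was 17.

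The genes that assemble or feed the chain were also compared between the strains in DMSO. Of all genes 24.1% were called lower and 6.04% higher there in newly synthesized RNA (17.8% and 13.6% under TMM). Of 37 assembly factor genes 1 was called lower and 1 higher in newly synthesized RNA, with a median of -0.10 (0.09 under TMM), and of 11 coenzyme Q synthesis genes 0 were called in either direction, with a median of -0.11 (0.07 under TMM). In that list edgeR had 1 lower and 0 higher at an unadjusted p under 0.05, and DESeq2 called 0. The called assembly factors were YLL018C-A (-0.71 ± 0.18, adjusted p = 0.00573, and 0.125 without Med17-AID DMSO replicate 2) and YER141W (0.87 ± 0.16, adjusted p = 0.000528). In the citrate cycle 3 of 11 genes were lower and 0 higher, with a median of -0.23 (-0.05 under TMM, with 0 lower and 2 higher), a share near that of all genes. Without Med14-AID DMSO replicate 2 or Med17-AID DMSO replicate 2 the count of lower genes was 1 and 0, and it was 2 without either replicate 1. In total RNA 5 of the 37 assembly factors were called higher and 0 lower, with a median of 0.26, where 9.69% of all genes were called higher. That count was 1 without Med17-AID DMSO replicate 1 and 2 without any other single library, and DESeq2 called 1. PET9, the main ADP/ATP carrier, was lower (-0.80 ± 0.14, adjusted p = 0.000511), while AAC3, the carrier of anaerobic cells, was at 0.05 ± 0.28. These lists differ from the 40 genes in size and level, and no test compared them.

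Of the chain's 7 subunits from the mitochondrial genome, 4 were called lower and 0 higher in newly synthesized RNA of Med17-AID cells with DMSO. Their median was -1.20 (-1.01 under TMM), and 24.1% of all genes were called lower and 6.04% higher. OLI1, subunit c of the ATP synthase, had 399 and 488 normalized counts in Med17-AID cells with DMSO, against 1542 and 871 in Med14-AID cells with DMSO (-1.44 ± 0.26, adjusted p = 0.000525). COX2 (-0.46 ± 0.21, adjusted p = 0.111) and COX3 (-0.58 ± 0.22, adjusted p = 0.0529) of complex IV were not called. ATP8 was not called either. It had 0 counts in both Med17-AID libraries and at most 22 counts in any library of newly synthesized RNA. Against an assumed floor of 3 counts over the group it was 3.62-fold lower, a single ratio without a counting interval. In total RNA 0 of the 7 were called, and the 6 other than ATP8 lay between -0.21 and -0.05. With auxin 0 of these subunits were called lower on the authors' scale. Their median was 0.65 (0.55 without ATP8) in Med17-AID cells, with 5 higher (4 without ATP8), where 1.70% of all genes were called higher. In Med14-AID cells it was 0.27 (0.28 without ATP8), with 0 called, where 0.560% were called higher. Under TMM the medians were 3.29 and 2.13. The counts rest on single libraries. In Med17-AID cells 2 were higher without DMSO replicate 1, 1 without auxin replicate 1 and 4 without either replicate 2. In Med14-AID cells 5 were higher without auxin replicate 1 and 1 without DMSO replicate 1, and 1 was lower without auxin replicate 2. At an unadjusted p under 0.05 edgeR had 0 of the 6 genes other than ATP8 lower in either strain, and DESeq2 called 0 of 7 lower.

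**Figure D5:**
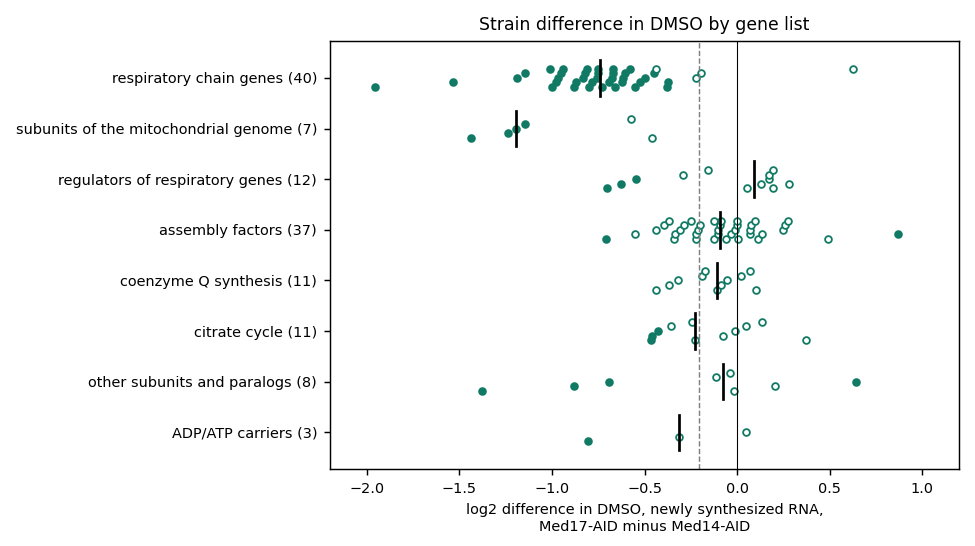
Log2 difference in newly synthesized RNA between the strains in DMSO, Med17-AID minus Med14-AID, for the 40 respiratory chain genes and 7 related lists (number tested in brackets). Each point is a gene (filled where called), the black bar is the list's median and the dashed line the all-gene median of -0.21. The 40 genes centre on -0.74 and the assembly factors on -0.10, which becomes 0.09 under TMM. ATP8 is not drawn because it had 0 counts in both Med17-AID libraries.

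Of the 12 listed regulators of these genes, 3 were called lower and 0 higher in newly synthesized RNA of Med17-AID cells with DMSO. Their median was 0.09, and 24.1% of all genes were called lower and 6.04% higher. HAP1 was among the lower ones, and YKL109W, described as the principal activation subunit of the Hap2p/3p/4p/5p complex, was not called. HAP1 had 6093 and 5984 normalized counts of newly synthesized RNA in Med17-AID cells with DMSO, against 9792 and 9891 in Med14-AID cells with DMSO (-0.70 ± 0.14, adjusted p = 0.00114). YKL109W had 4136 and 3611 against 2971 and 3904 (0.17 ± 0.15, adjusted p = 0.434), and its groups overlapped. ROX1, the hypoxic repressor, was lower (-0.63 ± 0.17, adjusted p = 0.00889), but not called without Med14-AID DMSO replicate 2 (-0.42) or Med17-AID DMSO replicate 2 (-0.44). With auxin HAP1 had 868 and 703 in Med17-AID cells, against the DMSO values above (-2.94 ± 0.15), and 845 and 864 in Med14-AID cells (-3.53 ± 0.15). YKL109W had 993 and 1158 with auxin in Med17-AID cells (-1.85 ± 0.16) and 2089 and 2123 with auxin in Med14-AID cells (-0.71 ± 0.15, and 1.16 under TMM). All 12 regulators listed were called lower with auxin in each strain on the authors' scale, with medians of -2.69 and -1.83. So were 95.0% of all genes in Med17-AID and 94.2% in Med14-AID cells. Under TMM 3 were lower and 3 higher in Med17-AID cells, where 30.3% of all genes were lower and 28.5% higher. In Med14-AID cells 2 were lower and 3 higher under TMM, where 24.3% of all genes were lower and 24.9% higher.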

How the data were processed

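RNA of 16 libraries (8 groups, 2 biological replicates each) was analysed. Per the labels' protocols, Schizosaccharomyces pombe cells were mixed in before RNA extraction, and libraries were made with a stranded total RNA kit after removal of ribosomal RNA. Per the submitters' processing notes, bcl2fastq 2.17.1.14 and the build sacCer3 were used. The aligner and counting program are not named there. Per the file headers the authors deposited raw read counts per gene. They also deposited a normalized signal, which equals the raw count times 1 constant per library. Neither labels nor headers say how the authors set these constants. Raw counts were tested with edgeR 4.0.16 in R 4.3.3 (two-sided quasi-likelihood F test, those constants as scaling, filterByExpr, group as the factor over 8 libraries of a kind of RNA, and a joint fit of all 16). P-values were Benjamini-Hochberg adjusted over all tested genes and called under 0.05. The spread behind them came from the 2 libraries per group over all groups of a fit, and was shared between genes. DESeq2 1.42.0, TMM, median-of-ratios scaling, no filter, a replicate block and leaving out each replicate were alternatives. The fit was tested on simulated data. The members, lists and tests were chosen with earlier results of these data known. Genes set to be named in full per comparison were the 4 lowest and 4 highest of the 40 by log2 fold change, the pairs COX5A and COX5B and CYC1 and CYC7, the regulators HAP4, HAP1 and ROX1, and the 2 lowest and 2 highest of each other list. Those of the other lists are printed only in part, without any gene of coenzyme Q synthesis or the citrate cycle. Promoter sequences were not used here.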

Additional observations from a re-analysis of the deposited data

Results flagged for a closer look

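The auxin change differed between the strains for 19 of the 40 genes in newly synthesized RNA, by the interaction test of edgeR at an adjusted p under 0.05. Values are log2, the change in Med17-AID cells minus that in Med14-AID cells, on the authors' scale. They were CYC7 (-4.47), SDH1 (-1.86), NDI1 (-1.20), YDR377W (-0.98), QCR8 (-0.94), COX5B (-0.93), TIM11 (-0.91), SDH4 (-0.88), ATP5 (-0.78) and ATP4 (-0.73). The remaining ones were YGL187C (-0.73), YDL067C (-0.69), QCR6 (-0.69), YHR001W-A (-0.66), YLR038C (-0.65), COX5A (-0.62), SDH3 (-0.54), YDL004W (-0.54) and RIP1 (-0.54).

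In total RNA the same test called 19 genes, against 7 to 14 when single libraries were left out, 10 by DESeq2 and 11 with the replicate block, and CYC7 lost its call without any single library. They were CYC7 (-1.72), RIP1 (-1.02), NDI1 (-0.80), SDH1 (-0.74), ATP4 (-0.71), YKL016C (-0.70), YBR039W (-0.66), YLR038C (-0.64), YHR001W-A (-0.59) and SDH2 (-0.58). The rest were YGL191W (-0.56), YLR395C (-0.53), ATP5 (-0.52), SDH3 (-0.44), QCR7 (-0.43), YJR121W (-0.41), COR1 (-0.40), YDR377W (-0.40) and YBL099W (-0.39). All these values are negative, and 59.6% of all genes in newly synthesized RNA and 41.3% in total RNA were called in that direction too. With TMM scaling 2 of the genes were called lower and 9 higher in newly synthesized RNA, and 0 lower and 2 higher in total RNA. Of all genes TMM had 16.8% lower and 18.0% higher in newly synthesized RNA, and 5.99% and 8.40% in total RNA.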

How the results depend on the processing

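Counts of called genes among the 40 held their side where the strains were compared in DMSO in newly synthesized RNA, and depended on the scaling wherever auxin was compared with DMSO. The newly synthesized RNA change in Med17-AID cells had 6 lower and 12 higher under TMM and 4 and 14 with median-of-ratios scaling, with medians of 0.083 and 0.12. The newly synthesized RNA change in Med14-AID cells had 8 lower and 2 higher under TMM and 8 and 1 with median-of-ratios scaling, with medians of -0.13 and -0.14. The newly synthesized RNA change between strains had 2 lower and 9 higher under TMM and 2 and 11 with median-of-ratios scaling, with medians of 0.25 and 0.30. The total RNA change in Med17-AID cells had 3 lower and 8 higher under TMM and 2 and 14 with median-of-ratios scaling, with medians of 0.10 and 0.23. The total RNA change in Med14-AID cells had 4 lower and 7 higher under TMM and 4 and 9 with median-of-ratios scaling, with medians of 0.043 and 0.10. The total RNA change between strains had 0 lower and 2 higher under TMM and 0 and 2 with median-of-ratios scaling, with medians of 0.10 and 0.17. Newly synthesized minus total in Med17-AID cells had 2 lower and 2 higher under TMM and 5 and 2 with median-of-ratios scaling, with medians of -0.09 and -0.17. Newly synthesized minus total in Med14-AID cells had 3 lower and 1 higher under TMM and 8 and 1 with median-of-ratios scaling, with medians of -0.19 and -0.26.

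DESeq2 called 6 genes lower for the total RNA difference in DMSO and 10 for the strain difference of the total RNA change, where it gave CYC7 no adjusted p, and the replicate block gave 11 for that strain difference. When each replicate was left out in turn, 40 genes were called lower each time in both strains for newly synthesized RNA and in Med17-AID cells for total RNA. The other counts of lower genes had ranges. 13 to 22 genes were called in the newly synthesized RNA change between strains. 28 to 32 genes were called in the newly synthesized RNA strain difference in DMSO. 29 to 31 genes were called in the total RNA change in Med14-AID cells. 7 to 14 genes were called in the total RNA change between strains. 1 to 7 genes were called in the total RNA strain difference in DMSO. 39 to 40 genes were called in newly synthesized minus total in Med17-AID cells. 38 to 40 genes were called in newly synthesized minus total in Med14-AID cells. The fit without the filter left every count within 1.5 times of that reported.

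Single genes changed sign under other scalings, given as log2 values under TMM and then with median-of-ratios scaling. For the newly synthesized RNA change in Med17-AID cells these were QCR9 0.69 and 0.73, YBR039W 0.80 and 0.84, YLR295C 0.88 and 0.92, QCR2 0.96 and 0.99, COX5A 0.23 and 0.27, YKL109W 0.81 and 0.85 and ROX1 1.09 and 1.13. For the newly synthesized RNA change in Med14-AID cells these were SDH2 0.26 and 0.25, YBR039W 0.26 and 0.25, YLR295C 0.28 and 0.26, NDI1 0.38 and 0.36, COX5A 0.068 and 0.053, CYC7 0.10 and 0.089, YKL109W 1.16 and 1.15 and ROX1 0.27 and 0.26. For the newly synthesized RNA change between strains these were YLR295C 0.60 and 0.66, CYC1 0.62 and 0.67 and COX5A 0.16 and 0.22. For the total RNA change in Med17-AID cells these were YBR039W 0.50 and 0.63, YJR121W 0.64 and 0.76, QCR2 0.71 and 0.83, YBL099W 0.85 and 0.98, COX5A 0.37 and 0.49 and COX5B 0.013 under median-of-ratios scaling alone. For the total RNA change in Med14-AID cells these were QCR2 0.58 and 0.63, YBR039W 0.63 and 0.69, CYC7 0.64 and 0.69 and COX5A 0.044 and 0.10. For the total RNA change between strains these were SDH4 0.34 and 0.41, CYC1 0.45 and 0.52, COX5A 0.33 and 0.40 and COX5B 0.27 and 0.34. For the total RNA strain difference in DMSO these were NDI1 -0.043 and -0.044. For newly synthesized minus total in Med17-AID cells these were YKL016C 0.52 and 0.44, NDI1 0.54 and 0.46, QCR9 0.58 and 0.50 and YLR295C 0.71 and 0.62. For newly synthesized minus total in Med14-AID cells these were YLR295C 0.14 and 0.069, YPR020W 0.14 and 0.068, QCR6 0.46 and 0.39, NDI1 0.68 and 0.62 and COX5A 0.023 under TMM alone.

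Leaving out a single library changed the sign of a few genes, given by the lowest and highest value over the libraries left out in turn. In the newly synthesized RNA change between strains these were QCR2 (-0.024 to 0.11, turned by leaving out Med17-AID DMSO replicate 1 and Med17-AID auxin replicate 1) and ROX1 (-0.17 to 0.25, turned by leaving out Med14-AID DMSO replicate 2, Med17-AID DMSO replicate 2 and Med17-AID auxin replicate 1). In the newly synthesized RNA strain difference in DMSO these were SDH1 (-0.57 to 0.30, turned by leaving out Med14-AID DMSO replicate 1), YKL109W (-0.012 to 0.38, turned by leaving out Med14-AID DMSO replicate 1), CAT8 (-0.047 to 0.39, turned by leaving out Med17-AID DMSO replicate 2), YER058W (-0.066 to 1.27, turned by leaving out Med14-AID DMSO replicate 2) and AAC3 (-0.35 to 0.38, turned by leaving out Med14-AID DMSO replicate 1 and Med17-AID DMSO replicate 1). In the total RNA change in Med14-AID cells these were CYC7 (-0.27 to 0.12, turned by leaving out Med14-AID DMSO replicate 2 and Med14-AID auxin replicate 2) and YBL099W (-0.025 to 0.071, turned by leaving out Med14-AID auxin replicate 2). In the total RNA change between strains these were SDH4 (-0.40 to 0.011, turned by leaving out Med17-AID auxin replicate 1), CYC1 (-0.32 to 0.26, turned by leaving out Med14-AID auxin replicate 1 and Med17-AID auxin replicate 1) and NDE1 (-0.069 to 0.45, turned by leaving out Med14-AID auxin replicate 2). In the total RNA strain difference in DMSO these were NDI1 (-0.064 to 0.11, turned by leaving out Med14-AID DMSO replicate 1 and Med17-AID DMSO replicate 2).

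The labels do not say that a replicate number marks a shared batch or day, so across groups the samples share only a number. Correlations of the deviations from the group means, at the same number, lay between 0.116 and 0.255 for auxin and DMSO of 1 strain, between -0.256 and 0.095 across the strains, and between -0.005 and 0.316 for newly synthesized and total RNA. The replicate block gave 40 lower genes for each auxin change of newly synthesized RNA, 20 for its strain difference, 35 in DMSO, and 8 for total RNA in DMSO, against 12 without it. For the strain difference of the total RNA change it gave 11, against 19 without it. Depth limits CYC7 most, and with 2 libraries per group the spread behind each p-value rests on sharing between genes. The causes of these changes were not tested.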

Other observations

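Several other values of the 40 genes fall outside the comparisons. By the lengths in the deposited tables they are short, with a median of 451 bases (range 180 to 1923), against 1080 bases for 6496 protein-coding genes. In newly synthesized RNA they took 0.568% and 0.622% of all counts with auxin in Med17-AID cells, against 0.491% and 0.535% with DMSO. In Med14-AID cells they took 0.769% and 0.806% with auxin, against 0.721% and 0.724% with DMSO. In total RNA the share was 0.359% and 0.3999% with auxin in Med17-AID cells, against 0.442% and 0.483% with DMSO, and 0.609% and 0.555% with auxin in Med14-AID cells, against 0.601% and 0.605% with DMSO. These shares do not use the authors' constants. The auxin libraries lay above the DMSO libraries in newly synthesized RNA of both strains and below them in total RNA of Med17-AID cells, and in total RNA of Med14-AID cells they overlapped.

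Of 9 further subunits and paralogs of the chain, 8 passed the filter in newly synthesized RNA. With auxin all 8 were called lower in both strains, as were 95.0% of all genes in Med17-AID and 94.2% in Med14-AID cells. Their median log2 changes were -3.34 and -2.46 (-0.74 and -0.60 under TMM, with 3 and 4 lower and 0 higher). Under TMM 30.3% of all genes were lower and 28.5% higher in Med17-AID cells, and 24.3% and 24.9% in Med14-AID cells. In DMSO 3 were called lower and 1 higher in Med17-AID than in Med14-AID cells, where 24.1% of all genes were called lower and 6.04% higher, with a median of -0.08 (0.10 under TMM). DESeq2 called 2 lower and 0 higher. The higher gene, YLR164W, lost its call without any of the 4 DMSO libraries, and the count of lower genes was 1 without Med17-AID DMSO replicate 2, 3 without Med14-AID DMSO replicate 2 and 2 without either replicate 1.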
